A study of Mus musculus with 16 samples.

Results

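The Cyp3a gene cluster of mouse chromosome 5 was followed through liver disease by its histone H3 lysine 27 acetylation (H3K27Ac), measured by chromatin immunoprecipitation and sequencing in 15 animals. Every peak of the 15 deposited lists that lay in the mm9 window chr5:146450000-147010000 was taken, a stretch of 560 kb in which Cyp3a11 sits near 146.67 Mb and Cyp3a25 near 146.8 Mb. These positions are rounded points and not mapped transcription starts, so every distance from them given below is approximate as a distance from the gene. The window held 201 of 500869 peaks on chromosomes 1 to 19 and X. Merging overlapping or adjoining peaks of all animals gave 24 regions in the window, of 56941 in all, and these are numbered 1 to 24 in order of position. The members of interest were Cyp3a11, Cyp3a16, Cyp3a25 and Cyp3a41a. An annotation of the mm9 build was not used here, so no peak was assigned to a gene, and Cyp3a16 and Cyp3a41a have no position of their own in the text that follows. Cyp3a16 probably lies outside the window. In the later build GRCm38.p6 it starts farther below Cyp3a11 than the window reaches, so the values of the window should not be read as covering it. For the same reason the markers of hepatocytes, macrophages and bile duct cells could not be looked up, and the tissue labels were not checked against them.

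There were 5 animals per group, each a separate mouse. Wild type (WT) livers came from mice labelled as strain FVB.129P2, where the study's methods name FVB/NJ, at 14 to 19 months of age. Inflamed livers came from Mdr2-/- mice, strain FVB.129P2-Abcb4tm1Bor/J, at 7 to 8 months, and hepatocellular carcinoma (HCC) nodules from Mdr2-/- mice at 14 to 19 months. Mdr2 (Abcb4) exports phospholipid into bile, and mice without it develop chronic bile-driven inflammation and later liver tumours. The knockout was present in the whole body, and all 3 groups had received clodronate liposomes at 50 µg/g body weight for 48 hours, which deplete macrophages. Age and genotype therefore cannot be told apart between WT and inflamed livers, nor age and tumour between inflamed livers and nodules. Animals of both sexes were used, and the sex of each is not given in the labels. In bulk tissue, fewer cells of a type and less of the mark per cell cannot be told apart. A control library of untreated WT liver, titled as input and described as an IgG immunoprecipitation, was not analysed here.

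CYP3A enzymes are the major drug-oxidising cytochromes P450 of the liver and also hydroxylate steroids and bile acids. Cyp3a11, the main inducible form in mouse liver, is a classical target of the xenobiotic receptors PXR (Nr1i2) and CAR (Nr1i3), which bind pairs of hexamer motifs together with RXR. Cyp3a25 is another hepatic form, while Cyp3a16, Cyp3a41a and their neighbour Cyp3a44 are known in mice for fetal or female-biased expression. H3K27Ac marks promoters and enhancers in use, and long unbroken stretches of it are typical of the genes that define a cell type.

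The sequences upstream of the 4 members are shown because they explain a limit on any signal at this locus, namely how alike the copies are to a short read. They were taken from RefSeq on GRCm38.p6, another build than that of the peaks, and their coordinates must not be laid over the mm9 positions. Each runs 5′ to 3′ over the 250 bases before the annotated start of transcription, on the minus strand, at chr5:145879855-145880104 for Cyp3a11, chr5:146009619-146009868 for Cyp3a25, chr5:145720137-145720386 for Cyp3a41a and chr5:145469724-145469973 for Cyp3a16. Capitals mark the nuclear receptor hexamers AGGTCA and AGTTCA, searched on both strands, so that they also appear as TGACCT and TGAACT.
Cyp3a11: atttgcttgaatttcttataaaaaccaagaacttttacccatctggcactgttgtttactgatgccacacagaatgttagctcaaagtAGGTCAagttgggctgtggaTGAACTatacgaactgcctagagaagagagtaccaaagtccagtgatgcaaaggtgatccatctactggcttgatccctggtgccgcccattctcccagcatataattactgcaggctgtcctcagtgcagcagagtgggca
Cyp3a25: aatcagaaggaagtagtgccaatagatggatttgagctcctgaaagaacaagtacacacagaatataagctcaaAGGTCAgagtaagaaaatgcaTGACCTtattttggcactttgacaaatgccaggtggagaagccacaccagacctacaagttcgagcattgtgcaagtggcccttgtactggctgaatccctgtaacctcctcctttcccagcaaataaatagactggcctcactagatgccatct
Cyp3a41a: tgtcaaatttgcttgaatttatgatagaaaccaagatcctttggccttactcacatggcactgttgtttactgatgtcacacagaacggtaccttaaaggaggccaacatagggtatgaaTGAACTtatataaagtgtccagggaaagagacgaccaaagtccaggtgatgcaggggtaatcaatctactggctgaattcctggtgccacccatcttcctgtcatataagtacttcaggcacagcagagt
Cyp3a16: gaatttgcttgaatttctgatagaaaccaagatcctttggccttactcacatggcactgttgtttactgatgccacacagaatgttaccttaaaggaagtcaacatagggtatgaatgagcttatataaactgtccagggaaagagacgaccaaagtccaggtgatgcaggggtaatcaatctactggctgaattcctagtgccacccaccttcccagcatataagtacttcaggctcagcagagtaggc

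In Cyp3a11 an AGGTCA begins 162 bases before the start and a TGAACT 142 bases before it. In Cyp3a25 an AGGTCA begins 176 bases and a TGACCT 155 bases before the start. Cyp3a41a has a single TGAACT, 130 bases before its start, and Cyp3a16 has none of these letters in this window, which says nothing of any factor. Either hexamer occurs in 24.2% of 32851 RefSeq promoters of the same length, and 3.7% hold 2 or more, so a match is a description of the letters only. Promoters were found for all 4 members and for 4 further protein-coding genes of the cluster, Cyp3a57, Cyp3a41b, Cyp3a44 and Cyp3a59. RefSeq orders the cluster, by rising coordinate, as Cyp3a57, Cyp3a16, Cyp3a41b, Cyp3a41a, Cyp3a44, Cyp3a11, Cyp3a25 and Cyp3a59, with pseudogenes between some of them.

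The upstream sequences differed widely in how far a read could tell them apart. Reads were 36 bases long. Of the 215 stretches of 36 bases in the Cyp3a41a promoter, 186 (86.5%) also occurred in another promoter of the cluster, all of them in Cyp3a41b, with which it was 99.6% identical. For Cyp3a16 the share was 35.3%, for Cyp3a25 it was 26.5%, and for Cyp3a11 it was 0.465%, a single stretch shared with Cyp3a16. Cyp3a11 and Cyp3a25 themselves were 55.6% identical upstream. Signal at Cyp3a41a could thus be lost or split between copies, depending on how reads with several matches were handled. That handling is not given in the sources used here. The Cyp3a11 promoter was nearly unique among the promoters compared, and sequence outside these promoters was not searched.

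Some animals stood apart before any comparison between groups. The paper states that some of these libraries were removed as outliers from its principal component plot of H3K27Ac, without naming them. All 15 were kept here unless a setting says otherwise. WT 130748 and HCC 124711 had 13262 and 11794 bp under peaks in the window, with the longest peak reaching 2020 and 3982 bp, against at least 45630 bp and at least 7587 bp in every other animal. HCC 123390 stood apart the other way, with a peak in 23 of the 24 regions, and 11 of those regions were found in no other animal. Over the genome, 109 Mb lay under peaks in WT 130748, 92.5 Mb in HCC 124711 and 169 Mb in HCC 123390, where the other animals had between 117 and 175 Mb. Peaks on chromosome Y were found in WT 134501, with 15, and in HCC 124711, with 13, and in none of the other 13 animals. The lists held 26375 to 30268 peaks on chromosomes 1 to 19 and X in WT livers, 35901 to 40909 in inflamed livers and 26683 to 42736 in nodules. Read counts were not among the files analysed, so depth is unknown. The part of depth, list length, sex or library quality in the values below was not tested.

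The first question was whether the acetylated length of the cluster differed between normal, inflamed and tumour tissue. With all 15 animals kept, it did not differ beyond the spread between animals in any pair of groups. The groups differed more visibly in how alike their animals were. In WT livers 63696 bp lay under peaks in animal 134501, 89753 in 129296, 83185 in 130747, 79834 in 129297 and 13262 in 130748. In inflamed livers the values were 60784 bp in 148997, 51513 in 148998, 54590 in 149198, 51317 in 149199 and 67067 in 148990. In HCC nodules they were 11794 bp in 124711, 79640 in 125278, 56345 in 125279, 45630 in 123206 and 154867 in 123390. The 5 inflamed livers lay within a range that the WT livers and the nodules enclosed on both sides, and the median WT liver, at 79834 bp, was above every inflamed liver.

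The means were 65946 ± 30974 bp in WT, 57054 ± 6780 bp in inflamed livers and 69655 ± 53533 bp in nodules (SD, n = 5 each). Inflamed minus WT was −8892 bp (exact two-sided permutation test, p = 0.595), HCC minus inflamed 12601 bp (exact p = 0.714) and HCC minus WT 3709 bp (exact p = 0.952). After Benjamini-Hochberg adjustment over 12 tests, 4 measures in 3 contrasts, every adjusted p was 1. The smallest p that 5 animals against 5 allow is 0.00794. The groups overlapped in every pair, and of 3923 windows of the same length tiling the genome 21% had every inflamed liver above every WT liver and 2.09% the reverse. Every inflamed list was also longer than every WT list, and the part of list length in this and the later genome-wide shares was not tested. Between nodules and inflamed livers these shares were 1.17% higher and 5.43% lower in HCC, and between nodules and WT livers 1.53% and 0.714%.

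Single libraries decided the size of the differences and, for nodules, their sign. Without WT 130748, the lowest WT liver, inflamed minus WT became −22063 bp, with 79117 ± 11075 bp in the remaining 4 WT livers (exact p = 0.0238, adjusted p = 0.143). Without HCC 123390, the nodules averaged 48352 ± 28206 bp, below both other groups, and HCC minus inflamed turned to −8702 bp. Among all 560 kb windows, the Cyp3a window lay at the percentile 82.8 in WT, 74.6 in inflamed livers and 81.3 in nodules for mean length under peaks. Its inflamed minus WT difference was at percentile 7.95, which is a description of where the window lies and no test.

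**Figure D1:**
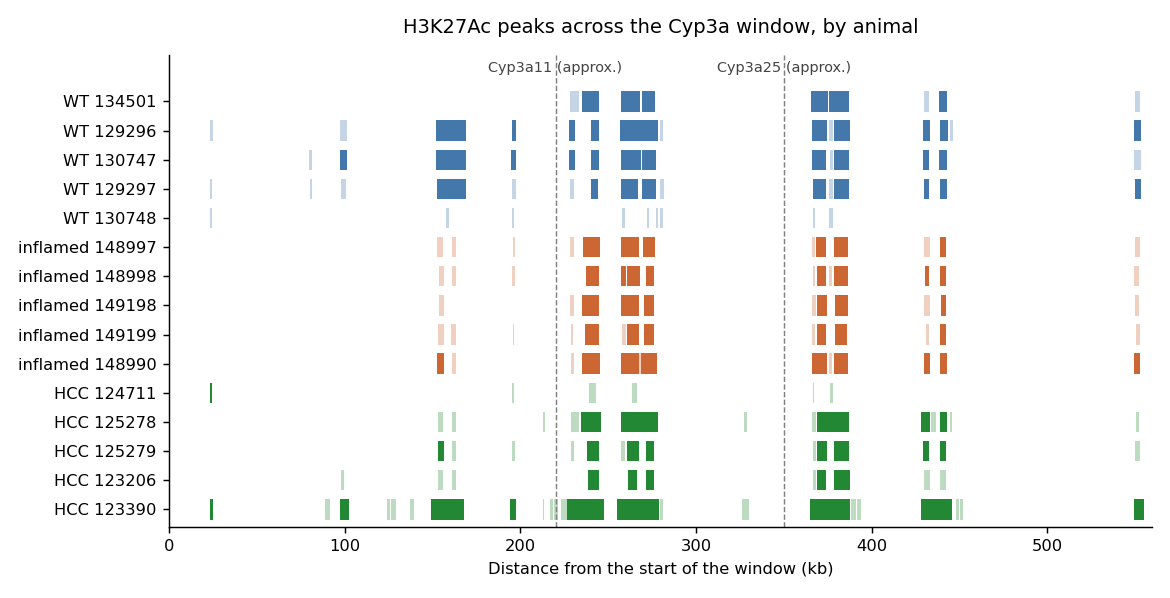
H3K27Ac peaks of each animal across the window, by distance from its start in kb, with 1 row per animal in blue for WT, orange for inflamed and green for HCC. Full colour marks a score in the top 50% of the animal's own list and pale colour the rest, and dashed lines mark the approximate Cyp3a11 and Cyp3a25 positions. WT 130748 and HCC 124711 show short peaks only, and HCC 123390 has a peak in 23 of 24 regions.

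The mean number of peaks in the window was close to equal in all groups, though single nodules ran from 6 to 23. WT livers had 10, 15, 14, 16 and 9 peaks, inflamed livers 13, 14, 11, 14 and 13, and nodules 6, 18, 14, 11 and 23, in the same order of animals as above. The means were 12.8 ± 3.11, 13 ± 1.22 and 14.4 ± 6.50 (SD, n = 5 each). By exact permutation test the p was 1 between inflamed and WT livers, 0.714 between nodules and inflamed livers and 0.698 between nodules and WT livers. WT and inflamed livers thus had nearly the same mean number of peaks, and where they differed in length is described region by region.

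**Figure D2:**
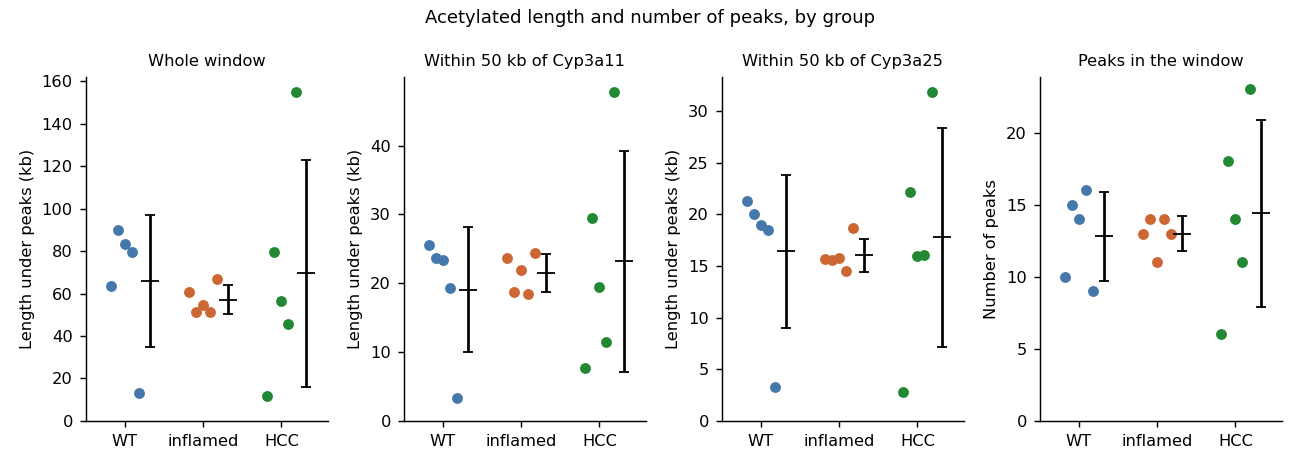
Length under H3K27Ac peaks in kb in the whole window and within 50 kb of the Cyp3a11 and Cyp3a25 positions, and the number of peaks in the window. Each point is an animal (WT blue, inflamed orange, HCC green, 5 per group) and the bars show mean ± SD, with the 5 inflamed livers between 51317 and 67067 bp in the whole window.

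Within 50 kb of the Cyp3a11 position, the groups again overlapped throughout. The WT livers had 25589, 23702, 23384, 19249 and 3306 bp under peaks, the last being WT 130748. The inflamed livers had 23633, 18655, 21948, 18470 and 24435 bp. The nodules had 7732, 29545, 19471, 11536 and 47720 bp, from HCC 124711 to HCC 123390. The 4 WT livers other than WT 130748 fell within about the same range as the 5 inflamed livers, and the nodules alone spread widely. The means were 19046 ± 9098, 21428 ± 2766 and 23201 ± 16052 bp (SD, n = 5 each), with exact permutation p of 0.810 between inflamed and WT livers, 0.849 between nodules and inflamed livers and 0.651 between nodules and WT livers. Of 15214 windows of 100 kb tiling the genome, 16.9% had all inflamed livers above all WT livers and 3.69% all below, 1.51% had all nodules above all inflamed livers and 5.27% all below, and 1.47% had all nodules above all WT livers and 1.19% all below.

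The position taken for Cyp3a11 is a rounded point, so a peak or its absence there does not show the state of the promoter. The point lay in region 12, chr5:146669072-146671430, which was occupied by a single peak of 2359 bp in HCC 123390. No other animal had a peak there, nor in regions 11 and 13 on either side. The nearest region occupied in most animals was region 14, chr5:146676532-146697442, which began 6531 bp above the position and had a peak in 14 of 15 animals. The widest region of the window was region 15, chr5:146705212-146729163, 23952 bp long and 35211 bp above the position. It was 1 of 2 regions with a peak in all 15 animals, 8.33% of the regions of the window, against 21.3% of all regions.

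In region 15 the WT livers had 18041 bp under peaks in 134501, 21636 in 129296, 19789 in 130747, 18393 in 129297 and 4605 in 130748. The inflamed livers had 17310 bp in 148997, 14595 in 148998, 15880 in 149198, 14466 in 149199 and 20394 in 148990. The nodules had 2467 bp in 124711, 21292 in 125278, 13941 in 125279, 9998 in 123206 and 23952 in 123390. The same 2 animals that were low over the whole window were low here, and the others overlapped between groups. The means were 16493 ± 6794 bp in WT, 16529 ± 2448 in inflamed livers and 14330 ± 8670 in nodules (SD, n = 5 each), and the exact permutation p was 1 between inflamed and WT livers, 0.643 between nodules and inflamed livers and 0.667 between nodules and WT livers. In WT 129296 and HCC 123390 the stretch was a single unbroken peak, of 21636 and 23952 bp, in HCC 124711 it was 1 short peak, and in the other animals it was broken into 2 or 3.

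Within 50 kb of the Cyp3a25 position the groups overlapped as well, but WT and inflamed livers shared less of their range than near Cyp3a11. The WT livers had 21322, 20016, 18984, 18464 and 3274 bp, the inflamed livers 15674, 15555, 15814, 14465 and 18709 bp, and the nodules 2778, 22198, 15945, 16051 and 31820 bp. The means were 16412 ± 7425, 16043 ± 1583 and 17758 ± 10584 bp (SD, n = 5 each), and by exact permutation test p was 0.984 between inflamed and WT livers, 0.611 between nodules and inflamed livers and 0.905 between nodules and WT livers. A single inflamed liver, 148990, reached the range of the 4 longer WT livers. Without WT 130748, inflamed minus WT moved from −369 to −3653 bp (exact permutation p = 0.0238, adjusted p = 0.143).

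The position taken for Cyp3a25 is likewise a rounded point that does not mark the promoter. That point was under no peak in any animal. The nearest region was region 18, chr5:146814825-146837608, which began 14824 bp above it and was the other region occupied in all 15 animals. Outside the nodules, region 18 held all of the length counted within 50 kb of Cyp3a25, so its values there are those just given. The nodules had 2778 bp in 124711, 20483 in 125278, 15945 in 125279, 16051 in 123206 and 22774 in 123390, with a mean of 15606 ± 7747 bp (SD, n = 5). In most animals the longest peak of the region lay at its upper end. It measured 7301 to 8250 bp in 4 inflamed livers and was longer, 8973 to 9191 bp, in 3 WT livers. The longest peak was 11620 bp in WT 134501, 1954 bp in WT 130748 and 8515 bp in inflamed 148990. In nodules it ran from 1752 bp in 124711 to 22774 bp in 123390. The exact permutation p for region 18 was 0.984 between inflamed and WT livers, 0.992 between nodules and inflamed livers and 0.754 between nodules and WT livers.

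No region of the window was gained or lost between groups, in the sense of a peak in all 5 animals of a group and in none of the other. Over all 56941 regions, 4.82% were gained and 0.399% lost in inflamed livers against WT, 0.105% gained and 1.28% lost in HCC against inflamed livers, and 0.22% gained and 0.146% lost in HCC against WT. Likewise in 0 of 24 regions did the covered lengths of a pair of groups fail to overlap. Over all regions this was so for 9.43% higher and 3.08% lower in inflamed livers than in WT, for 0.862% and 3.61% in HCC against inflamed livers, and for 0.694% and 0.934% in HCC against WT. Nor was any of the 24 occupied in 4 or 5 more animals of a group than of another. Over all regions this was so for 11% more often and 1.51% less often occupied in inflamed livers than in WT, for 0.636% and 4.78% in HCC against inflamed livers, and for 1.8% and 0.927% in HCC against WT. By the exact permutation test on covered length, Benjamini-Hochberg adjusted over all 56941 regions, no region of the genome passed 0.05 in any contrast. With a smallest possible p of 0.00794, a region could pass this adjustment only if a large share of all regions came near that value. The adjusted test therefore could not single out a region, however well its groups were separated. Unadjusted, 24.5%, 12.2% and 6.97% of all regions had p under 0.05 in the 3 contrasts in the same order, and none of the 24 was among them.

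**Figure D3:**
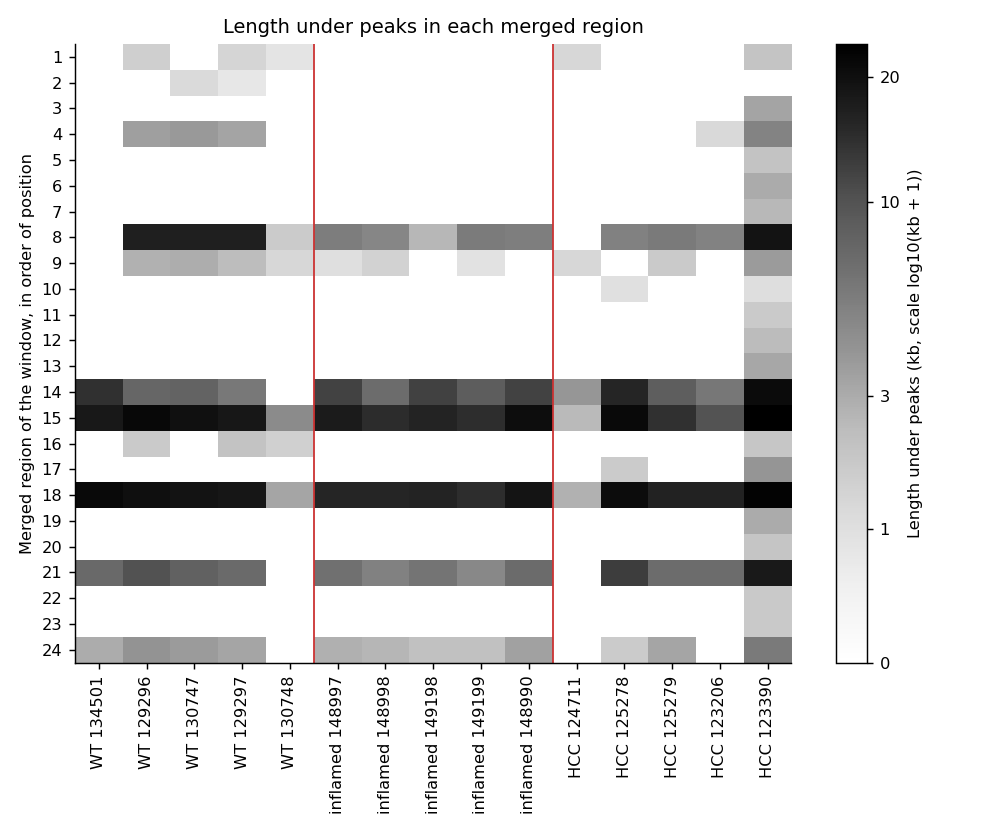
Length under peaks in each of the 24 merged regions (rows, in order of position) and each of the 15 animals (columns), on a grey scale of log10(kb + 1) with its bar marked in kb. Red lines separate the groups. Regions 15 and 18 are occupied in all 15 animals, and 11 regions in HCC 123390 alone.

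The regions that follow were singled out after their values were seen, and the tests given for them are descriptive. Region 8, chr5:146598919-146619103, lay on the side of Cyp3a11 toward lower coordinates, with its near end 50897 bp from the Cyp3a11 position. The RefSeq order places Cyp3a44, Cyp3a41a, Cyp3a41b and Cyp3a16 on that side, and region 8 was assigned to none of them. By their GRCm38.p6 distance from Cyp3a11, both Cyp3a41b and Cyp3a16 probably lie beyond the window. Region 8 carried one of the longest stretches of acetylation of the window in 3 WT livers. There the mark was an unbroken peak of 16662 bp in WT 129296, 16695 bp in WT 130747 and 16696 bp in WT 129297. WT 130748 had a peak of 1732 bp and WT 134501 had none. The 3 long peaks all had the score 3100, a value that 14.2 to 18.1% of the peaks in these lists shared, and tied peaks are ranked together at the upper end, at the percentile 99.3 to 99.4 here.

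In inflamed livers the same region held short peaks, with 5589 bp in 148997, 4973 in 148998, 2525 in 149198, 5782 in 149199 and 5573 in 148990. In 4 of them there was a pair of separate peaks, in 149198 a single one, and the longest in any was 3552 bp. Nodules 125278, 125279 and 123206 had the same pair of short peaks, with 5298, 5839 and 5197 bp in all, while 123390 had an unbroken peak of 19045 bp and 124711 none. The score percentiles were between 32.4 and 55.6 in inflamed livers. The long form was thus present in 3 WT livers, in no inflamed liver and in 1 nodule, and the paired short form in 4 inflamed livers and 3 nodules but in no WT liver.

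The mean length in region 8 was 10357 ± 8686 bp in WT, 4888 ± 1356 in inflamed livers and 7076 ± 7098 in nodules (SD, n = 5 each). Inflamed minus WT was −5469 bp (exact permutation p = 0.167, adjusted p = 0.455 over all regions), and the WT group enclosed the inflamed one on both sides. HCC against inflamed had an exact p of 0.722 and HCC against WT of 0.540. The only animals with no peak in region 8, WT 134501 and HCC 124711, were also the only ones with chromosome Y peaks, and HCC 124711 was also low over the whole window. Sex is not labelled, and its part in the absence of the peak was not tested.

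**Figure D4:**
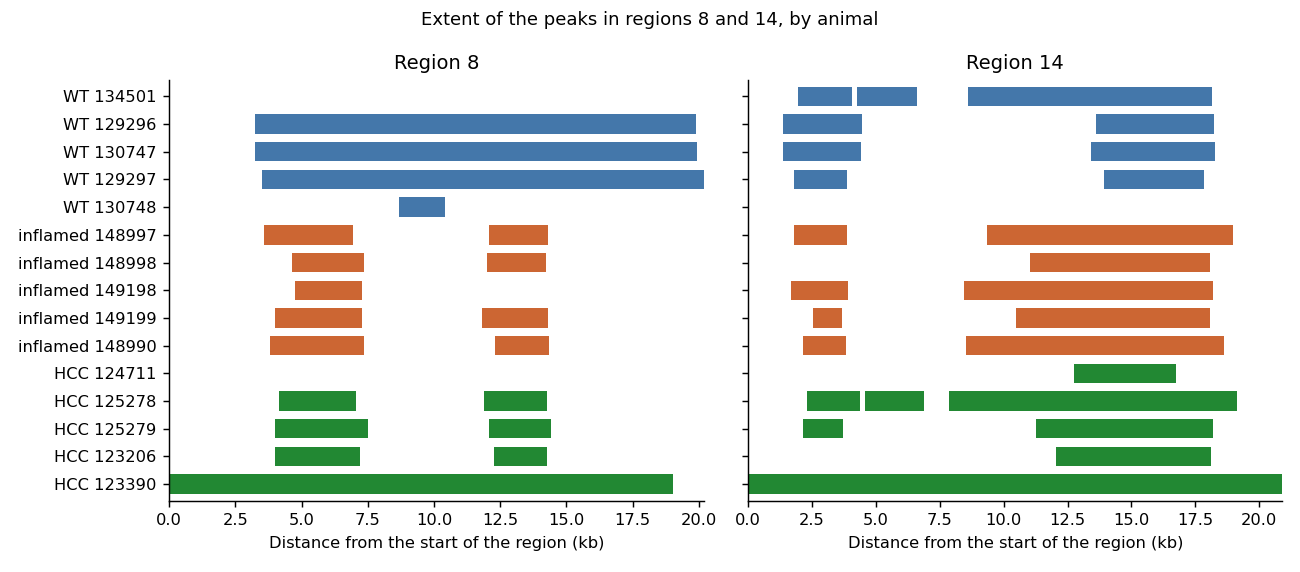
Extent of each animal's peaks in region 8 (left) and region 14 (right), by distance from the start of the region in kb, with WT in blue, inflamed in orange and HCC in green. In region 8 an unbroken peak of 16662 to 16696 bp is seen in 3 WT livers and short peaks in inflamed livers, while in region 14 the same 3 WT livers have a shorter upper peak than every inflamed liver.

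Region 14, the nearest widely occupied region to the Cyp3a11 position, had its longer form in other animals. Its longest peak measured 4612 bp in WT 129296, 4860 in WT 130747 and 3924 in WT 129297, the same livers that had the long peak in region 8. In WT 134501 it measured 9526 bp, and WT 130748 had none. In inflamed livers it measured 9615 bp in 148997, 7057 in 148998, 9722 in 149198, 7587 in 149199 and 10081 in 148990, each with the score 3100. All 5 inflamed livers therefore exceeded 4 of the 5 WT livers in this peak, and WT 134501 fell among them.

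The nodules had longest peaks in region 14 of 3982 bp in 124711, 11261 in 125278, 6926 in 125279, 6034 in 123206 and 20911 in 123390. Over the region as a whole, the length under peaks was 13974, 7672, 7918, 5974 and 0 bp in WT livers, 7057 to 11978 bp in inflamed livers and 3982 to 20911 bp in nodules. The means were 7108 ± 4998, 10243 ± 2234 and 11024 ± 7078 bp (SD, n = 5 each), and the exact permutation p was 0.270 between inflamed and WT livers, 0.802 between nodules and inflamed livers and 0.341 between nodules and WT livers. By its longest peak in region 14, WT 134501 was within the inflamed range. By its length over the whole region, 13974 bp, it was above every inflamed liver. In region 8 it had no peak and every inflamed liver had one. HCC 123390 had the longest peak in each region.

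Outside region 8, the lower-coordinate side was sparsely acetylated. In the 170 kb below the Cyp3a11 neighbourhood, without region 8, WT 129296, WT 130747 and WT 129297 had 5093, 5020 and 5392 bp under peaks. WT 130748 had 833 bp there, and WT 134501 and all 5 inflamed livers had 0. The nodules had 1284 bp in 124711, 1213 in 123206 and 18015 in 123390, and 0 in the other two. Regions 1, 2 and 4, which had peaks in WT but in no inflamed liver, lay here.

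Regions 1, 2, 4, 10, 16 and 17 were each occupied in 2 or more animals and in 0 of 5 inflamed livers. Region 4, chr5:146547141-146552303, had peaks of 3540 bp in WT 129296, 3813 in WT 130747 and 3304 in WT 129297, and of 1213 and 5163 bp in HCC 123206 and HCC 123390. In the 3 WT livers left without WT 130748 and WT 134501, a choice made after seeing the data, it was the 1 region of the window that met the rule for a loss in inflamed livers, and none met that for a gain. Over all regions the looser rule of 3 against 5 called 1.98% lost and 7.28% gained. Region 1 had peaks of 833 to 1553 bp in 3 WT livers, of 1284 bp in HCC 124711 and of 1987 bp in HCC 123390, and the nodule peaks ranked higher in their lists, at percentiles 56.2 and 58.6, than the WT peaks. Region 16 had peaks of 1532 to 2027 bp in 3 WT livers and of 1926 bp in HCC 123390. Region 2 was occupied in 2 WT livers, and regions 10 and 17 in 2 nodules each, HCC 125278 and HCC 123390. Apart from region 4, the WT peaks in these regions were of low rank in their lists, at percentiles from 0.622 to 34.4.

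Region 9, 22268 bp below the Cyp3a11 position, was occupied in 4 WT livers, 3 inflamed livers and 3 nodules. The WT peaks measured 2765, 2904, 2325 and 1286 bp, and WT 134501 had none. The inflamed ones measured 1021, 1458 and 913 bp, and those of nodules 1283, 1764 and 3694 bp. The lowest ranks were in inflamed livers, at percentiles 8.15 to 12.6 of their lists against 42.4 to 53.5 in WT livers. The mean lengths were 1856 ± 1216, 678 ± 652 and 1348 ± 1526 bp (SD, n = 5 each), and inflamed against WT gave an exact permutation p of 0.111 and an adjusted p of 0.385 over all regions.

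Beyond Cyp3a25, regions 21 and 24 were occupied in every inflamed liver and in all WT livers but WT 130748. Region 21, chr5:146877886-146896460, had 7278 to 10029 bp under peaks in the 4 WT livers with a peak and 4830 to 7187 bp in the inflamed livers. Nodules 125278, 125279, 123206 and 123390 had 12469, 7081, 7137 and 17709 bp, and 124711 none. Region 24, at the upper edge of the window, measured 2947 to 4124 bp in 4 WT livers, 2099 to 3420 bp in inflamed livers and 1699, 3272 and 5880 bp in 3 nodules. The exact permutation p for inflamed against WT was 0.833 in region 21 and 0.849 in region 24. In region 21 the inflamed livers were all below the 4 WT livers with a peak, and with WT 130748 counted the groups overlapped.

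The remaining 11 regions, numbers 3, 5, 6, 7, 11, 12, 13, 19, 20, 22 and 23, were occupied in HCC 123390 alone. They made up 45.8% of the regions of the window, where regions occupied in a single animal made up 22.9% of all regions, and all 11 belonged to this nodule. Of the bases of the window under a peak in any animal, 158628 bp, 48005 were covered in HCC 123390 alone. In this nodule 27.7% of the window lay under peaks, against 2.11 to 16.0% in the other animals, and the window took 917 ppm of all its length under peaks, against 121 to 680 ppm in the others. Its peaks in these 11 regions all ranked at or below the percentile 45.1 of its list. Copy number was not measured in these files, and neither its part nor that of background in this nodule was tested.

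At the level of single bases, the inflamed livers shared a common core. A peak was present in all 5 inflamed livers over 41783 bp of the window. The WT livers other than WT 130748 covered 92.2 to 94.8% of this core, and WT 130748 covered 10.8%. The nodules other than HCC 124711 covered 85.6 to 100%, and HCC 124711 covered 17.6%. The acetylation common to inflamed livers was thus nearly all present in the well-covered WT livers and nodules, and the 4 WT livers had between 43.7 and 62.2% of their own length inside it.

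There were 18285 bp under a peak in at least 3 WT livers and in no inflamed liver, of which 10108 lay in region 8, and 0 bp under a peak in at least 3 inflamed livers and in no WT liver. These were 17.8% and 0% of the bases of the window under a peak in any WT or inflamed liver. Over the genome the same shares were 5.75% and 10.2%. In region 14, where the inflamed livers had a longer peak than 4 of the 5 WT livers, WT 134501 covered much of the same stretch. Over the strict contrast of all 5 against none, 190 bp were covered in every WT liver and no inflamed one, and 0 bp in each of the other 5 comparisons of this kind. The stretch covered in all 15 animals was 763 bp, and it was 31368 bp over the 13 animals other than WT 130748 and HCC 124711. These base counts were made after the region values were known, and no test was run on them.

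The likeness of the peak maps between animals was measured by the Jaccard index, the bases covered in both animals of a pair divided by those covered in either. It averaged 0.776 ± 0.0468 over the 10 pairs of inflamed livers, 0.476 ± 0.327 over those of WT livers and 0.354 ± 0.235 over those of nodules. Without WT 130748 and HCC 124711, it ran from 0.554 to 0.870 over 6 pairs of WT livers and from 0.295 to 0.736 over 6 pairs of nodules, beside 0.711 to 0.840 over the inflamed pairs. Between inflamed livers and these 4 WT livers it averaged 0.610 over 20 pairs, and between inflamed livers and these 4 nodules 0.620. Pairs share animals, so the SD is a description and no test was made.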

How the data were processed

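Livers or nodules of 15 mice, assayed by H3K27Ac ChIP-seq, were grouped by the sample titles into WT, inflamed and HCC. The authors aligned reads with Bowtie 0.12.7 to mm9 and called peaks with MACS 1.4 in each animal, per the labels and the submitters' processing notes. The deposited peak lists give position and a score from 50 to 3233.06. The scale of the score is not given in the sources used here, 9.52 to 24.5% of each list is tied at 3100, and it served only for ranks within a list. Read depth is unknown.

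Peaks on chromosomes 1 to 19 and X were merged over all animals, and 1 bp of overlap made a region occupied. The tests were two-sided exact permutations of the difference of group means, for length under peaks and peak number, Benjamini-Hochberg adjusted over the 12 tests of the window or over all 56941 regions. The scripts (Python 3.11.15, NumPy 2.4.6) were tested on simulated data. Promoters were aligned with Biopython 1.88, and RefSeq tables of GRCm38.p6 gave gene order and promoters only. The rule for named regions took those that differed by 4 or 5 animals or did not overlap between groups, those nearest the Cyp3a11 and Cyp3a25 positions, and the widest. It gave regions 12, 15 and 18. Alternatives were equal lists of 26375 peaks, the 50% of peaks with the best scores, scores of at least 100, shares of an animal's peaks, a window wider by 10000 bp on each side, 25 kb around each gene, occupancy of 50% of a region, 4 against 1 animals, and leaving out animals. Members and lists were chosen with earlier results of these data known.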

Additional observations from a re-analysis of the deposited data

Results flagged for a closer look

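The values of each group were examined for an animal far from the other 4, in 21 groups of values, and 5 were found. Chance gives about 1 in 20 for unrelated groups of values. The measures here overlap, so a single library can be found several times, and the count cannot be set against that rate. Of these, 4 were WT 130748, with 3306 bp within 50 kb of Cyp3a11, 3274 bp within 50 kb of Cyp3a25, 4605 bp in region 15 and again 3274 bp in region 18, which is the same length as within 50 kb of Cyp3a25. The fifth was HCC 123390, with 2359 bp in region 12, where every other animal had none, so that it stood apart there by definition.

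Chromosome Y peaks, which entered no comparison, were present in WT 134501, with 15, and HCC 124711, with 13, and in none of the other 13 animals. These were also the animals without a peak in region 8.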

How the results depend on the processing

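For window length, peak number, gene neighbourhoods and gained or lost regions, 282 values under an alternative were unchanged in sign and side of the threshold. Another 41 changed sign and 1 count of lost regions rose from 0. The 282 include gained and lost counts that stayed at 0, which have no direction. All 41 changes of sign were among lengths and peak numbers. None of the main values of these was under the threshold. No adjusted p passed 0.05 in any alternative, the lowest being 0.143. With these group sizes and 12 tests, a single fully separated comparison could not pass, so this does not show that a difference was absent. With the top 50% of each list, HCC minus WT became −3715 bp in the window and −529 bp near Cyp3a25, HCC minus inflamed became −819 bp near Cyp3a11, and the differences in peak number became −0.2 (inflamed minus WT), −1 (HCC minus inflamed) and −1.2 (HCC minus WT). Equal lists gave −1.8 peaks for inflamed minus WT and −0.2 for HCC minus WT, and scores of at least 100 gave −0.2 peaks for HCC minus inflamed. In ppm of each animal's own total, HCC minus WT was −52.7 for window length, −17.1 for peaks and −9.63 near Cyp3a25, and inflamed minus WT was −112 for peaks. Within 25 kb of Cyp3a25 inflamed minus WT was 516 bp. The cause of these changes was not tested.

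Without WT 130748 and HCC 124711, inflamed minus WT was −0.75 peaks, −1553 bp near Cyp3a11 and −2936 bp in region 15. Without WT 134501 and HCC 124711, it was −0.5 peaks and 859 bp both near Cyp3a25 and in region 18, and HCC minus WT was 1190 bp in region 15 and 3629 bp in region 18. Without all 3, a choice made after seeing the data that leaves out the WT livers with the lowest window length, inflamed minus WT was −27203 bp in the window (adjusted p = 0.214 by exact permutation, with no overlap), −2 peaks, −683 bp near Cyp3a11 and −3410 bp in region 15, HCC minus WT was −137 bp in the window, and the number of regions lost in inflamed livers was 1. In each of these settings HCC minus inflamed was 767 bp in region 15 and 2770 bp in region 18.

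With each animal left out in turn, inflamed minus WT, HCC minus inflamed and HCC minus WT ranged from −22063 to −2940, −8702 to 27066 and −17594 to 18174 bp in the window, from −0.75 to 1, −0.75 to 3.5 and −0.55 to 3.7 peaks, from −1553 to 4018, −4357 to 5640 and −1975 to 8022 bp near Cyp3a11, and from −3653 to 859, −1800 to 5460 and −2169 to 5092 bp near Cyp3a25. The same ranges, also chosen after seeing the data, were −2936 to 1322, −4604 to 767 and −5135 to 803 bp in region 15 and −3653 to 859, −2229 to 2770 and −4090 to 2401 bp in region 18. HCC minus inflamed ranged from −805 to 3956 bp in region 8 and from −1690 to 2542 bp in region 14. Gained and lost regions stayed at 0. No paired analysis was possible because animal numbers are unique to each group. Depth is unknown, and an absent peak does not show absent acetylation.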
